A study of Homo sapiens with 59 samples.

Results

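A set of 9 genes was followed across a collection of RNA-seq libraries from A549 cells, a human lung carcinoma line, exposed to ethanol extracts of plant materials. They were taken by symbol from the deposited count table: FBXO32, PDK4, IRS2, INSR, CCNG2, SESN3 and BCL6, which are known targets of the FOXO transcription factors, and TXNIP and ARRDC4, which are known targets of the glucose-sensing factors MondoA (MLXIP) and ChREBP (MLXIPL). Each of the 9 symbols had 1 Ensembl gene ID among the 60675 genes of the table, and 8 of the 9 passed the filter on low counts. TXNIP did not pass it.

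The 59 libraries were made from cells treated for 24 h and fall into 25 groups. The first 6 extracts come from single plant materials. Coptidis Rhizoma is the rhizome of Coptis, known for its berberine content, and was given at 4.4, 22 and 110 µg/mL. Bupleuri Radix, the root of Bupleurum, was given at 7.6, 38 and 190 µg/mL. Zizyphi Fructus (jujube fruit), Citri Unshius Pericarpium (mandarin peel), Cimicifugae Rhizoma (the rhizome of Cimicifuga) and Aconiti Lateralis Radix Preparata (processed lateral root of aconite) were each given at 20, 100 and 500 µg/mL. The multi-herb formulas, Yijung-tang and Banhasasim-tang, had the same 20, 100 and 500 µg/mL. These are the low, medium and high doses below. Each dose had 3 libraries for Citri, Cimicifugae and Bupleuri, and 2 for Coptidis, Zizyphi and Yijung-tang. The Aconiti extract had 3 libraries at the low and high doses and 2 at the medium dose. Banhasasim-tang had 1 library per dose, so its values carry no test. The control was DMSO vehicle, with 3 libraries. The labels do not say whether replicates were separate cultures, so p-values measure the spread between these libraries, which may be technical. All cells are of 1 line, and no insulin or glucose treatment is described.

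FOXO proteins carry the transcriptional answer to a low insulin signal. Insulin and IGF receptors act through IRS adaptors, PI3-kinase and AKT, AKT phosphorylates FOXO, and phosphorylated FOXO leaves the nucleus. When the signal is low, FOXO switches on genes that spare glucose (PDK4), restore insulin sensitivity (IRS2, INSR), slow the cell cycle (CCNG2), degrade protein (FBXO32) and buffer stress (SESN3), together with the repressor BCL6. MondoA and ChREBP respond to glucose phosphates and bind paired E-boxes upstream of TXNIP and ARRDC4, whose alpha-arrestin proteins restrain glucose uptake.

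Sequencing depth was 17214755 to 39751161 expected counts per library. The labelled cell line was checked against 9 A549 markers. They were the epithelial genes KRT8, KRT18, KRT7, CDH1 and EPCAM and the enzyme genes AKR1B10, AKR1C1, NQO1 and ALDH3A1. All 9 were above 1 CPM (counts scaled to a common library total) in every library, with a summed level of 10700 to 27500 CPM. The enzyme genes enter this sum, so it does not measure epithelial genes alone. Of the 4 alveolar type 2 markers, SFTPA1, SFTPB and SFTPC stayed below 1 CPM everywhere, and NAPSA had 0.537 to 1.91 CPM. Of 17 markers of blood, vessel, fibroblast, muscle, fat and liver cells, 14 were below 1 CPM in every library, and CD3E and ADIPOQ had no count in any of the 59. The other 3 were CD68, COL1A1 and ACTA2. In these bulk samples, fewer cells of a type and less RNA per cell cannot be told apart. In 4 libraries, 2 of the Citri extract (high and medium dose, replicate 3) and 2 of the Cimicifugae extract (medium and low dose, replicate 2), antisense-type genes opposite protein-coding exons summed to 1122.6 to 2240.6 CPM. The other libraries had at most 895.5 CPM, and the vehicle libraries had 756.8 to 793.9 CPM. The counts below are also given without these 4 libraries.

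Levels are CPM after TMM scaling. Each difference is a log2 fold change with its standard error (SE) from 1 edgeR quasi-likelihood fit of all 25 groups. A gene was called changed at a Benjamini-Hochberg adjusted p below 0.05 over the 18568 genes tested. All sample titles, of vehicle and extracts alike, carry the same label (Second_BatchD), which is not explained further. The vehicle libraries nevertheless have a library code of their own (D1). The extract codes are 11 for Coptidis and Zizyphi, 12 for Citri and Cimicifugae, 13 for Bupleuri and Aconiti and 14 for the formulas. A shift shared by all extracts therefore cannot be told apart from a difference between library codes, and the high dose was also set against the low dose of the same extract. All comparisons with vehicle share the same 3 vehicle libraries.

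At the high dose, 12 of 56 member tests were called against vehicle, 9 higher and 3 lower. Over all genes in the same 7 comparisons, 3.82% of tests were called. By extract, Coptidis had 3 called members with 12.6% of all genes called, Cimicifugae 2 with 0.377%, Bupleuri 4 with 3.36% and Aconiti 3 with 4.65%. Citri and Yijung-tang had none called, with 4.42% and 1.37% of all genes, and Zizyphi had none with 0.0%. At the medium dose, 6 of 56 tests were called, 3 higher and 3 lower, against 2.98% over all genes. They belonged to Aconiti, with 4 members and 17.5% of all genes called, and to Coptidis, with 2 members and 3.27%. The other medium doses had none, and their shares of all genes were 0.0269% for Cimicifugae, 0.0108% for Yijung-tang, 0.00539% for Bupleuri and 0.0% for Citri and Zizyphi. At the low dose, edgeR called none of 56, and 12 had an unadjusted p below 0.05. DESeq2 called 1, BCL6 for Bupleuri. Over all genes 0.0646% were called at the low dose, with 0.447% for Coptidis, 0.00539% for Citri and 0.0% for each of the others. The members' share was 21.4% at the high dose and 10.7% at the medium dose, both above the share over all genes. The members were chosen with earlier results of these data known, so these shares describe the set and do not test it. Of the 12 high-dose calls, 3 were FBXO32 and 3 were BCL6. The vehicle means of these genes were the lowest of the 25 groups, which cannot be told apart from the vehicle's library code. Without the 4 libraries of high antisense signal the counts were 1, 11 and 18 at the low, medium and high doses, and all calls made with them were kept. The 6 added at the high dose were BCL6 for Citri and Yijung-tang, FBXO32 for Cimicifugae and Yijung-tang, and INSR for Bupleuri and Cimicifugae.

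Between the high and the low dose of the same extract, 5 of 56 member tests were called, 2 higher and 3 lower, against 1.62% over all genes. These were 2 in Coptidis, where 2.31% of all genes were called, and 1 each for Cimicifugae with 0.221%, Bupleuri with 1.58% and Aconiti with 3.29%. None was called for Citri with 3.54%, Yijung-tang with 0.431% or Zizyphi with 0.0%. In 4 further comparisons within a library code, 6 of 32 member tests were called, against 6.23% over all genes. These were 2 each for Coptidis against Zizyphi at the high dose (8.12% of all genes), Cimicifugae against Citri at the high dose (7.67%) and Aconiti medium against Aconiti high (7.78%). The comparison of the 2 Aconiti doses was chosen because earlier results of these data had singled it out, so its calls are no independent evidence. Bupleuri against Aconiti at the high dose had none, with 1.33% of all genes called. Without the 4 libraries of high antisense signal, 9 members were called between the high and low doses and 7 in the other 4 comparisons.

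**Figure D1:**
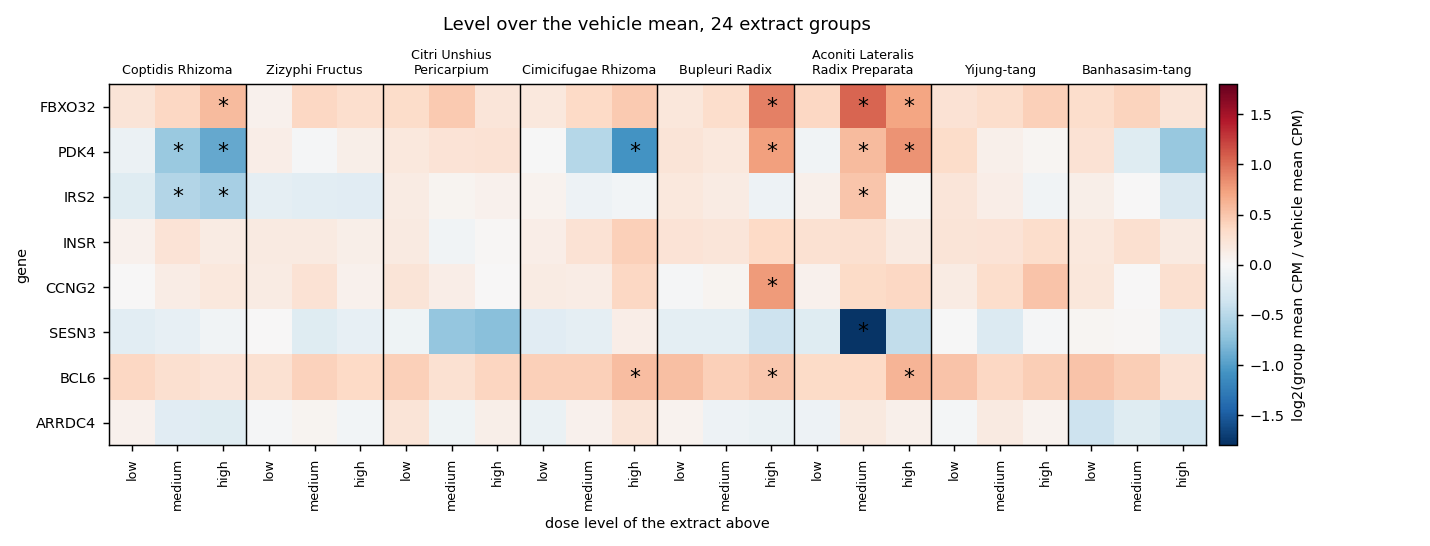
Log2 ratio of each group's mean CPM to the vehicle mean for the 8 tested genes (rows) in the 24 extract groups (columns, low to high dose within each extract); asterisks mark differences called against vehicle. At the high dose PDK4 is below vehicle for Coptidis and Cimicifugae and above it for Bupleuri and Aconiti, FBXO32 and BCL6 are above vehicle in every column, and SESN3 has its lowest ratio at the medium dose of Aconiti. TXNIP is left out because its counts were too few.

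PDK4, the kinase that shuts pyruvate dehydrogenase and so keeps pyruvate out of the citric acid cycle, moved most often and in both directions. It fell with Coptidis and Cimicifugae and rose with Bupleuri and Aconiti at the high dose. Its gene lies on chromosome 7 (95583499 to 95596491, minus strand, GRCh38). Coptidis gave 12.3 and 12.6 CPM at 110 µg/mL, and Cimicifugae gave 12.7, 9.91 and 11.1 CPM at 500 µg/mL. Bupleuri gave 39.1, 41.5 and 38 CPM at 190 µg/mL, and Aconiti gave 39.5, 40.5 and 45.3 CPM at 500 µg/mL. The vehicle libraries had 21.7, 23.1 and 26.3 CPM. None of these 4 groups overlapped the vehicle, 2 lying wholly below it and 2 wholly above it. The log2 fold change over vehicle was -0.93 (SE 0.17, edgeR adjusted p = 0.000125) for Coptidis and -1.08 (SE 0.15, edgeR adjusted p = 1.59e-05) for Cimicifugae. It was 0.74 (SE 0.14, edgeR adjusted p = 0.00119) for Bupleuri and 0.82 (SE 0.14, edgeR adjusted p = 0.000239) for Aconiti. In a fit of only the Cimicifugae and vehicle libraries the value for Cimicifugae was -1.07 with an edgeR adjusted p of 0.13.

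With Coptidis, Cimicifugae and Aconiti the group means of PDK4 moved stepwise with dose. With Coptidis, PDK4 averaged 22.1 ± 1.94 CPM at the low dose, 14.9 ± 2.23 at the medium dose and 12.5 ± 0.171 at the high dose (SD, n = 2 each). The medium dose was already below vehicle (log2 fold change -0.67, SE 0.17, edgeR adjusted p = 0.0165), a call that was lost without replicate 2 of that dose (adjusted p = 0.389) or replicate 3 of the vehicle (adjusted p = 0.107). With Cimicifugae the libraries had 28.7, 17.9 and 24.1 CPM at the low dose, 20.3, 13.8 and 15.6 at the medium dose and 12.7, 9.91 and 11.1 at the high dose. All 3 high-dose libraries lay below all low- and medium-dose libraries. With Aconiti PDK4 averaged 22.6 ± 2.27 CPM at the low dose (n = 3), 35 ± 1.73 at the medium dose (n = 2) and 41.7 ± 3.1 at the high dose (n = 3). The medium dose exceeded vehicle by 0.57 on the log2 scale (SE 0.16, edgeR adjusted p = 0.00932), which was not called without its replicate 1 (adjusted p = 0.0961).

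The high and low doses, which share a library code, also separated. The log2 fold change of PDK4, high over low, was -0.83 (SE 0.18, edgeR adjusted p = 0.00628) for Coptidis, -1.07 (SE 0.15, edgeR adjusted p = 3.98e-05) for Cimicifugae and 0.88 (SE 0.14, edgeR adjusted p = 8.62e-05) for Aconiti. The Coptidis call, with 2 libraries a dose, was lost without replicate 2 or 3 of the high dose or replicate 3 of the low dose (adjusted p = 0.0907 to 0.156), and the Cimicifugae call in a fit restricted to the 9 Cimicifugae libraries (adjusted p = 0.589). For Bupleuri the high-dose libraries, 38 to 41.5 CPM, lay above the low-dose libraries, 26.4 to 30.1 CPM. That difference, 0.50 (SE 0.14), was not called in the fit of all libraries, and was called without the 4 libraries of high antisense signal (edgeR adjusted p = 0.00144) and by DESeq2 (adjusted p = 0.026). The remaining extracts, Zizyphi, Citri and Yijung-tang, had high-over-low values of -0.31 to 0.09 for PDK4 and none was called.

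**Figure D2:**
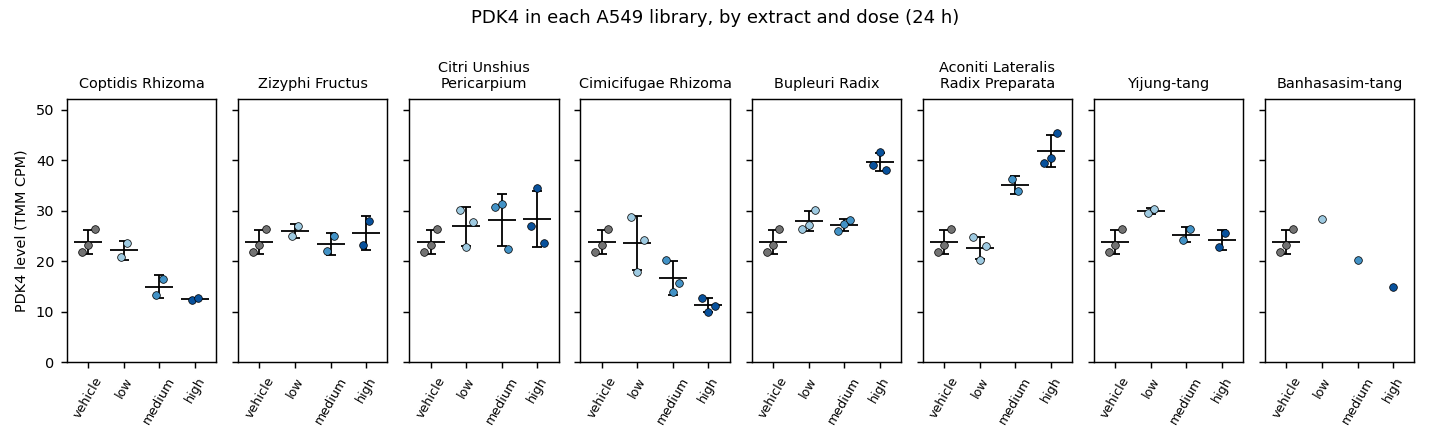
PDK4 level (TMM CPM) in every library, one panel per extract, with vehicle, low, medium and high dose along the x axis; points are libraries and bars the mean with its SD where there are 2 or more. The high-dose points sit at 9.91 to 12.7 CPM for Coptidis and Cimicifugae and at 38 to 45.3 CPM for Bupleuri and Aconiti, against 21.7 to 26.3 CPM for vehicle.

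Extracts that share a library code differed in PDK4. The high dose of Coptidis (12.3 and 12.6 CPM) lay below that of Zizyphi (23.2 and 27.9 CPM), with a log2 fold change of -1.04 (SE 0.18, edgeR adjusted p = 0.000103). The high dose of Cimicifugae (9.91 to 12.7 CPM) lay below that of Citri (26.9, 34.5 and 23.6 CPM), with a log2 fold change of -1.34 (SE 0.15, edgeR adjusted p = 1.59e-07). Over the 25 groups PDK4 spanned 3.72-fold, the highest mean being Aconiti high (41.7 ± 3.1 CPM) and the lowest Cimicifugae high (11.2 ± 1.4 CPM). Bupleuri high (39.5 ± 1.78 CPM) was next to the top and overlapped Aconiti high, and Coptidis high (12.5 ± 0.171 CPM) was next to the bottom and overlapped Cimicifugae high.

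Among the other pyruvate dehydrogenase kinases, PDK2 fell where PDK4 fell in Coptidis and also where PDK4 rose in Aconiti. PDK2 averaged 11.7 ± 0.228 CPM at the high dose of Coptidis, against 16.7 ± 1.45 CPM in vehicle (log2 fold change -0.51, SE 0.11, edgeR adjusted p = 0.00127). At the medium dose of Aconiti it averaged 11.2 ± 0.0161 CPM (log2 fold change -0.57, SE 0.11, edgeR adjusted p = 0.000159), and PDK3 was lower there too, at 6.6 ± 0.241 against 8.44 ± 0.404 CPM (log2 fold change -0.36, SE 0.12, edgeR adjusted p = 0.0381). Per kilobase of exon, the vehicle level of PDK4 was 5.25 CPM, that of PDK2 was 3.04, that of PDK3 was 1.7 and that of PDK1 was 0.584.

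IRS2, the adaptor that links the insulin receptor to PI3-kinase, fell with Coptidis and rose at the medium dose of Aconiti. Its gene lies on chromosome 13 (109752698 to 109786568, minus strand). Coptidis gave 62.7 and 64.9 CPM at the high dose and 64.1 and 70.4 CPM at the medium dose, against 89.5, 99.6 and 101 CPM in vehicle. All 4 of these libraries lay below the lowest of the other libraries, which was 80.4 CPM. The log2 fold change over vehicle was -0.60 (SE 0.1, edgeR adjusted p = 2.74e-05) at the high dose and -0.52 (SE 0.1, edgeR adjusted p = 0.000742) at the medium dose. The medium-dose call was lost without replicate 2 of that dose (adjusted p = 0.0746). The high dose also lay below the high dose of Zizyphi, 81.7 and 86.3 CPM (log2 fold change -0.40, SE 0.11, edgeR adjusted p = 0.0129), and below its own low dose, 80.7 and 86.1 CPM (log2 fold change -0.39, SE 0.11, edgeR adjusted p = 0.0428). Both of these calls were lost when any 1 of their 4 libraries was left out (adjusted p = 0.0648 to 0.172 and 0.167 to 0.438). Both were also lost without the filter on low counts, with adjusted p of 0.251 and 0.542. Mitochondrial ribosomal RNA took 9.13% to 9.36% of counts at the low dose of Coptidis, 10.32% to 11.15% at the medium dose and 6.09% to 6.42% at the high dose, against 2.24% to 2.43% in vehicle. Its part in the PDK4 and IRS2 values was not tested.

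At the medium dose of Aconiti, IRS2 had 130 and 142 CPM, against 95.5, 102 and 99 CPM at the high dose of the same extract and 89.5 to 101 CPM in vehicle. These were the 2 highest IRS2 values among the 59 libraries. The log2 fold change was 0.49 over vehicle (SE 0.1, edgeR adjusted p = 0.000181) and 0.46 over the high dose (SE 0.1, edgeR adjusted p = 0.00117). Without replicate 2 of the medium dose the difference from the high dose was 0.40 and not called (adjusted p = 0.0601). IRS2 did not follow the dose series of PDK4 in this extract, in which PDK4 was highest at the high dose. Across the 25 groups the Pearson correlation of the mean log2 levels of IRS2 and PDK4 was 0.64, a description over groups that share library codes.

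The paralogue IRS1 was measured at 72.8 ± 3.81 CPM in vehicle (SD, n = 3), and per kilobase of exon IRS2 had 11.9 CPM and IRS1 7.31 CPM in vehicle. INSR, the insulin receptor itself (chromosome 19, 7112255 to 7294034, minus strand), varied least over the groups of the 8 tested members. Its group means ran from 12 CPM (Citri medium) to 16.8 CPM (Cimicifugae high), a 1.4-fold span, and vehicle averaged 12.5 ± 1.82 CPM. No comparison with vehicle was called in the main fit, the log2 fold changes at the high dose being 0 to 0.42. Without the 4 libraries of high antisense signal, Bupleuri high, Cimicifugae high and Cimicifugae medium were called (edgeR adjusted p = 0.0275, 0.0269 and 0.0487). Fits of only the libraries compared called Bupleuri high, Yijung-tang high and Aconiti medium (0.00449, 0.0336 and 0.0499). Wholly above the vehicle lay 10 extract groups, single libraries of Banhasasim-tang among them, and none lay wholly below it. Such groups were not counted for all genes. One difference between extracts was called: Cimicifugae at the high dose had 19.3, 16 and 15.2 CPM and Citri at the high dose 13.5, 10.5 and 13.9 CPM (log2 fold change 0.42, SE 0.14, edgeR adjusted p = 0.0492). The groups did not overlap, but the call was lost under RLE scaling (adjusted p = 0.0511), in a fit of only these 2 extracts (adjusted p = 0.601) and when single libraries of either group were left out, for 5 of the 6 (adjusted p = 0.0799 to 0.256).

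**Figure D3:**
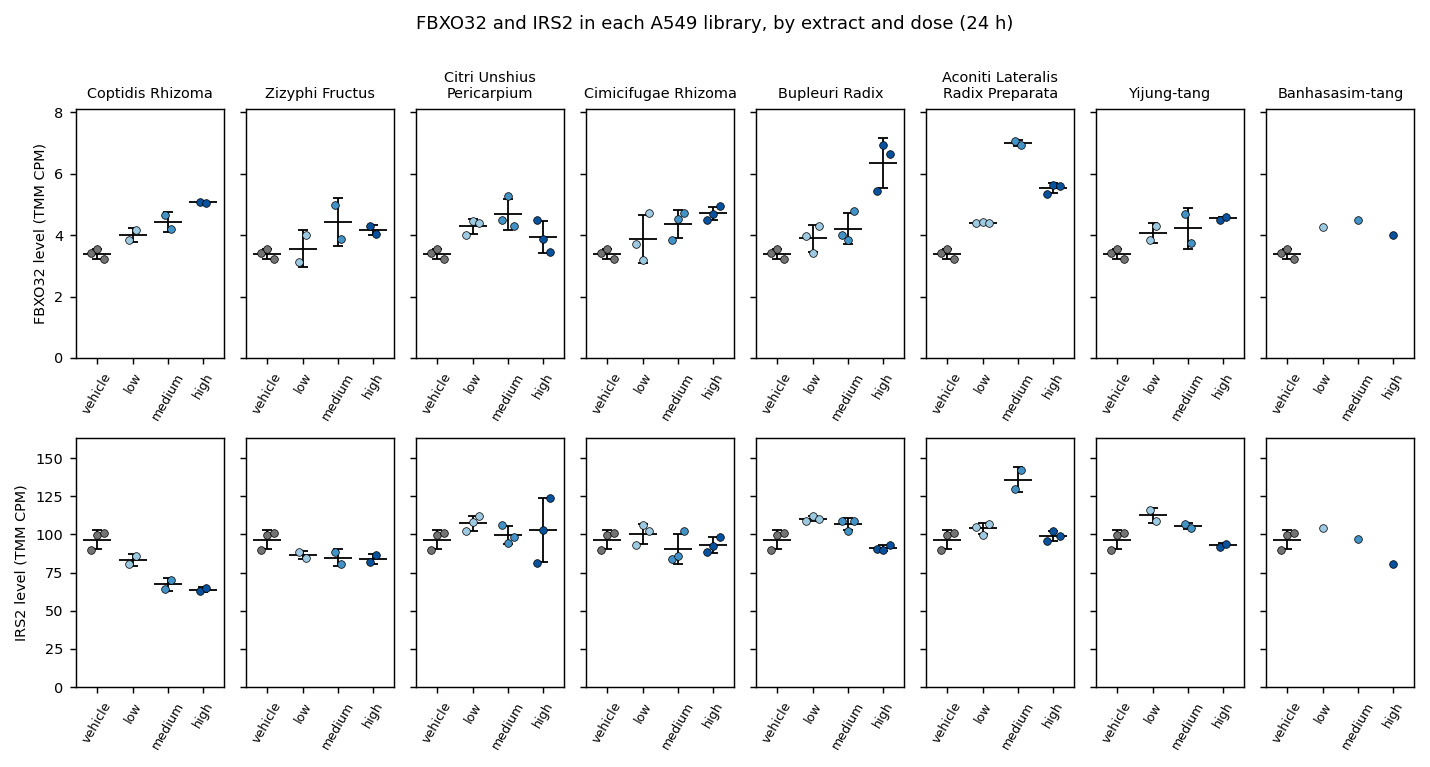
FBXO32 (top) and IRS2 (bottom) levels (TMM CPM) in every library, one panel per extract, with vehicle, low, medium and high dose along the x axis; points are libraries and bars the mean with its SD where there are 2 or more. FBXO32 peaks at 6.93 to 7.06 CPM at the medium dose of Aconiti, against 3.23 to 3.56 CPM in vehicle, and IRS2 has its lowest points, 62.7 to 70.4 CPM, at the high and medium doses of Coptidis.

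FBXO32 encodes atrogin-1, the F-box subunit of a ubiquitin ligase best known from wasting muscle, and it was higher than vehicle in the called comparisons without exception. Its gene lies on chromosome 8 (123497889 to 123541206, minus strand). Levels were low, with 56 or more counts in each library. At the high dose Coptidis gave 5.08 and 5.06 CPM, Bupleuri gave 5.44, 6.95 and 6.66 CPM, and Aconiti gave 5.34, 5.64 and 5.59 CPM, against 3.41, 3.56 and 3.23 CPM in vehicle. No library of these 3 groups overlapped the vehicle. The log2 fold change over vehicle was 0.57 (SE 0.14, edgeR adjusted p = 0.00471) for Coptidis, 0.90 (SE 0.13, edgeR adjusted p = 7.39e-06) for Bupleuri and 0.70 (SE 0.13, edgeR adjusted p = 0.000405) for Aconiti. The Coptidis call was lost without the filter on low counts (adjusted p = 0.0905).

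The medium dose of Aconiti had the highest FBXO32 level of the 25 groups, 7.06 and 6.93 CPM, a log2 fold change of 1.04 over vehicle (SE 0.14, edgeR adjusted p = 3.14e-07). Between the high and low doses, FBXO32 was called for Bupleuri, with 5.44 to 6.95 CPM at the high dose and 3.98, 3.43 and 4.29 CPM at the low dose (log2 fold change 0.70, SE 0.13, edgeR adjusted p = 0.000426). The vehicle mean was the lowest of the 25 groups, and 20 of the 24 extract groups, 3 of them single libraries of Banhasasim-tang, lay wholly above the 3 vehicle libraries. That includes low-dose groups in which no FBXO32 difference was called, and it cannot be told apart from the vehicle's separate library code. The share of all genes with such a pattern was not counted. TRIM63, the other classic muscle atrophy ligase, had 4 counts in all 59 libraries together, and the paralogue FBXO25 averaged 18.2 ± 1.07 CPM in vehicle.

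CCNG2, an unconventional cyclin that restrains the cell cycle (chromosome 4, 77157151 to 77433388, plus strand), rose in 1 comparison. At the high dose of Bupleuri it had 5.6, 5.84 and 6.15 CPM, against 2.9, 3.24 and 4.2 CPM in vehicle, with no overlap (log2 fold change 0.78, SE 0.23, edgeR adjusted p = 0.0496). Leaving out any 1 of these 6 libraries removed the call (adjusted p = 0.0528 to 0.239), as did RLE scaling (adjusted p = 0.0501). The low dose of Bupleuri had 3.72, 3.02 and 3.46 CPM, and the high-over-low difference was also 0.78 (SE 0.23), with an edgeR adjusted p of 0.0745. It was called by DESeq2 (adjusted p = 0.0328) and without the 4 libraries of high antisense signal (edgeR adjusted p = 0.0021). Bupleuri high had the highest CCNG2 mean of the 25 groups and, after Aconiti medium, the next highest FBXO32 mean. Their group means of the log2 level correlated at 0.67 over the 25 groups.

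BCL6, a zinc-finger transcriptional repressor known from germinal-centre B cells (chromosome 3, 187721377 to 187745727, minus strand), was higher than vehicle at the high doses of Cimicifugae, Bupleuri and Aconiti. Cimicifugae gave 11.2, 10.8 and 12.3 CPM, Bupleuri gave 11.3, 10 and 11.2 CPM, and Aconiti gave 11.1, 13.3 and 11.2 CPM, against 7.32, 7.43 and 8.5 CPM in vehicle. The log2 fold changes were 0.56 (SE 0.13, edgeR adjusted p = 0.0405), 0.48 (SE 0.13, edgeR adjusted p = 0.0314) and 0.62 (SE 0.13, edgeR adjusted p = 0.0023). The Cimicifugae call was lost when any 1 of its 6 libraries was left out (adjusted p = 0.0551 to 0.261), in a fit of only the Cimicifugae and vehicle libraries (0.494) and without the filter on low counts (0.0841). The Bupleuri call was lost without 2 of the vehicle and 2 of the Bupleuri libraries in turn (adjusted p = 0.0888 to 0.136) and without the filter (0.101). No high dose differed from the low dose of the same extract, where the log2 fold changes were -0.11 to 0.27. The vehicle mean, 7.75 ± 0.653 CPM, was the lowest of the 25 groups, and 23 of 24 extract groups, the 3 single libraries of Banhasasim-tang among them, lay wholly above the vehicle libraries. All 7 low-dose values were positive, 0.28 to 0.54, and none was called in the main fit. Bupleuri low was called by DESeq2 (adjusted p = 0.0484) and without the 4 libraries of high antisense signal (edgeR adjusted p = 0.0102). Fits of only the libraries compared called the low doses of Bupleuri, Coptidis and Yijung-tang (edgeR adjusted p = 0.00123, 0.0236 and 0.0116). Higher BCL6 than in vehicle was thus seen in nearly all extracts and doses, and it cannot be told apart from the vehicle's library code. How many of all genes lie above the vehicle in as many groups was not counted.

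SESN3, a sestrin that activates AMP kinase signalling and restrains mTORC1 (chromosome 11, 95165513 to 95232541, minus strand), fell at the medium dose of Aconiti. The 2 libraries had 3.75 and 4.29 CPM, against 8.92, 9.21 and 11.8 CPM at the high dose, 12.5, 10.1 and 12.6 CPM at the low dose and 15.8, 13.3 and 11.8 CPM in vehicle. The log2 fold change was -1.76 over vehicle (SE 0.37, edgeR adjusted p = 0.000405) and -1.31 over the high dose (SE 0.36, edgeR adjusted p = 0.0174). The second call was lost without either medium-dose library (adjusted p = 0.204 and 0.123) or without replicate 3 of the high dose (adjusted p = 0.0775). The relatives of SESN3 went different ways in the same libraries. SESN2, a stress-induced sestrin, averaged 49.9 ± 1.78 CPM at the medium dose of Aconiti, against 14.5 ± 1.41 CPM in vehicle (log2 fold change 1.78, SE 0.17, edgeR adjusted p = 2.79e-10). SESN1 averaged 7.73 ± 0.476 CPM, against 11.2 ± 1.19 CPM (log2 fold change -0.54, SE 0.15, edgeR adjusted p = 0.00803).

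SESN2 also rose at every dose of Coptidis, to 28.8 ± 0.47 CPM at the low dose, 38.8 ± 1.34 at the medium dose and 56.7 ± 3.52 at the high dose, against 14.5 ± 1.41 in vehicle. In the same libraries SESN3 had 11.2 to 13.3 CPM, within 0.15 of vehicle on the log2 scale at the high and medium doses. Spread within groups limited the SESN3 results. In the Citri extract the high-dose libraries had 14.3, 6.55 and 3.52 CPM and the medium-dose libraries 14.6, 5.23 and 5.49 CPM. The Cimicifugae extract had 14.8, 8.27 and 13.4 CPM at the medium dose and 16.2, 6.07 and 13.1 CPM at the low dose. The 4 libraries of high antisense signal were among these, with 3.52 to 8.27 CPM of SESN3. Replicate 2 of Citri high and of Citri medium were as low, with 6.55 and 5.23 CPM, with antisense sums of 752.9 and 759.9 CPM. The part of the antisense signal in the SESN3 level was not tested.

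**Figure D4:**
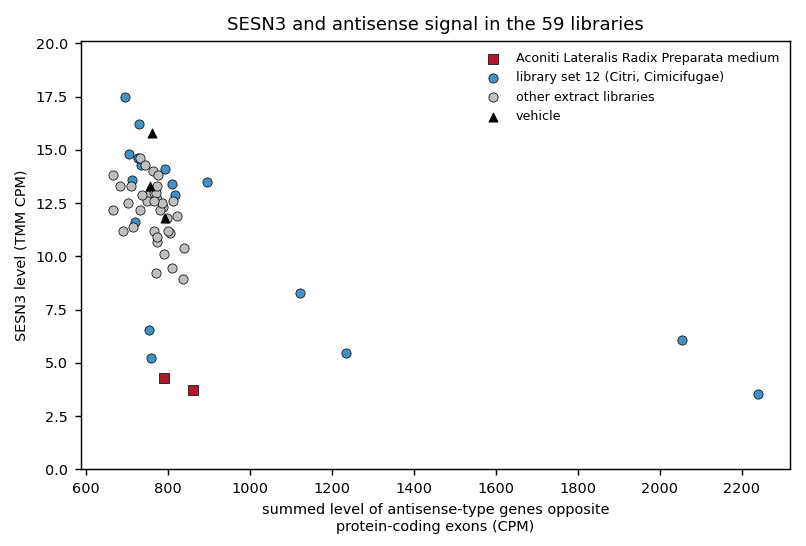
SESN3 level (TMM CPM, y axis) against the summed level of antisense-type genes opposite protein-coding exons (CPM, x axis), 1 point per library: squares for Aconiti medium, blue circles for Citri and Cimicifugae, grey circles for the other extracts and triangles for vehicle. The 2 libraries of Aconiti medium have 3.75 and 4.29 CPM at an antisense signal within that of the other libraries, and the 4 libraries beyond 1000 CPM have 3.52 to 8.27 CPM.

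The medium dose of Aconiti had 4 members called against vehicle, as many as the high dose of Bupleuri, and it also differed in A549 markers. Of the 9 A549 markers, enzyme genes included, 5 were lower than vehicle and none higher, where 17.5% of all genes were called. CDH1 (E-cadherin) was at 5.32 ± 0.136 CPM, against 31 ± 0.518 CPM (log2 fold change -2.54, SE 0.28, edgeR adjusted p = 4.4e-09). Of the 4 tested markers of other cell types CD68 was higher, at 29.3 ± 1.55 against 6.18 ± 0.435 CPM, and COL1A1, ACTA2 and PLIN1 were lower. The summed level was 10700 to 11300 CPM for the 9 A549 markers, against 13500 to 14500 CPM in vehicle. It was 37.2 to 38.5 CPM for the 17 markers of other cell types, of which 8 had no count in the group, against 44.7 to 48.3 CPM in vehicle. At the high doses with called members the A549 marker sum was 12400 to 12600 CPM for Coptidis and 11600 to 12900 for Cimicifugae. It was 11000 to 11900 CPM for Bupleuri and 12300 to 12600 for Aconiti. In the same order the sum for other cell types was 46 to 46.2, 44.5 to 48.2, 56 to 61 and 37 to 44.9 CPM. CD68 was also higher than vehicle at the high doses of Bupleuri (22.4 ± 5.23 CPM) and Aconiti (16 ± 2.5 CPM). The part of these shifts in the values of the members was not tested. At the medium dose of Aconiti the median log2 fold change of the 8 tested members was 0.36 with 7 positive, and that of all tested genes was -0.01.

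TXNIP and ARRDC4 mark the glucose-sensing arm. TXNIP had too few counts to be tested, and ARRDC4 gave no called difference. The 250 bases before their annotated start sites are shown because MondoA and ChREBP bind paired E-boxes upstream of these genes. The same stretches of IRS2 and PDK4, the FOXO targets that fell together with Coptidis, are shown beside them. They are RefSeq sequences of the GRCh38.p14 build, written 5′ to 3′ on the gene's strand, and for TXNIP the upstream one of its start sites is shown. Capitals mark matches to 4 searched motifs on either strand: the FOXO core GTAAACA, the insulin response form TGTTTTG, the E-box CACGTG, and the carbohydrate response motif, which is a pair of CACGNG boxes set 5 bases apart (CACGNGNNNNNCACGNG).
TXNIP, chr1:145996580-145996829, minus strand: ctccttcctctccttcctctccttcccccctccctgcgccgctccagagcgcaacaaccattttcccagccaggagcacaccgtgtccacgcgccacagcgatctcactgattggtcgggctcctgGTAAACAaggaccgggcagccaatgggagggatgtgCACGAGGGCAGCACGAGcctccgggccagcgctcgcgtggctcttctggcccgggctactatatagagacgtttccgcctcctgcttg
ARRDC4, chr15:97960453-97960702, plus strand: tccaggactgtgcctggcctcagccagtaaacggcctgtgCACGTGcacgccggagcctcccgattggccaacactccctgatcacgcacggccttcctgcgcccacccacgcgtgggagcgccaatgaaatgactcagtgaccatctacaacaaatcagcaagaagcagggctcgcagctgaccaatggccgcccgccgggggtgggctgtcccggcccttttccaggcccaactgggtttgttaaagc
IRS2, chr13:109786584-109786833, minus strand: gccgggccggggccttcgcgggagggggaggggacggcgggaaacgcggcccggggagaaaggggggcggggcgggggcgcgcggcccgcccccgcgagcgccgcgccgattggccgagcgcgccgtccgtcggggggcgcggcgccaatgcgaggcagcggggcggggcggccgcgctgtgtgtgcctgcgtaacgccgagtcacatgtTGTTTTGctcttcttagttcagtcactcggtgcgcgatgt
PDK4, chr7:95596517-95596766, minus strand: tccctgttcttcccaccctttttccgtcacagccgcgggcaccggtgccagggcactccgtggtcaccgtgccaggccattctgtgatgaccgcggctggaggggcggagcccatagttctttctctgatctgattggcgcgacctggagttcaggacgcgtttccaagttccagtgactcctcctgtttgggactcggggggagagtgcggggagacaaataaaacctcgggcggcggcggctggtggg
With positions counted from the start site, TXNIP held the carbohydrate response motif at -88 and a FOXO core at -124. ARRDC4 held an E-box at -210 but no match to the paired carbohydrate response motif, and IRS2 held the insulin response form at -40. None of the 4 motifs was found in the PDK4 window, nor in those of SESN3, BCL6 and INSR. CCNG2 had an E-box at -30. The table had no entry for FBXO32. The carbohydrate response motif can contain an E-box, since each of its boxes may read CACGTG. Among 35116 RefSeq promoter windows of 300 bases, 20 (0.057%) held the carbohydrate response motif, 3.42% the FOXO core, 4.92% the insulin response form and 7.26% the E-box. A match describes letters and not a bound site.

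TXNIP, the thioredoxin-interacting protein, was near the limit of detection in these A549 libraries. It had 251 counts in the 59 libraries together, at most 0.371 CPM, and no count in replicate 3 of Citri high. In vehicle it had 1, 6 and 2 counts (0.0391, 0.209 and 0.102 CPM). Its highest group mean was the medium dose of Aconiti, with 11 and 8 counts (0.368 and 0.264 CPM), the 1 group wholly above the vehicle libraries. With so few counts no difference was tested. Per kilobase of exon the vehicle level was 0.0323 CPM for TXNIP and 0.282 CPM for ARRDC4, against 9.24 CPM for the related alpha-arrestin ARRDC3, 4.85 for ARRDC2 and 3.84 for ARRDC1.

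ARRDC4 had 0.814 to 1.66 CPM over the 59 libraries, from 15 to 49 counts each. Vehicle had 1.45, 1.08 and 0.922 CPM, and 22 of the 24 extract groups overlapped it, the other 2 being single libraries of Banhasasim-tang. Its group means spanned 1.53-fold, and the log2 fold changes over vehicle at the high dose were -0.23 to 0.22 with SEs of 0.25 to 0.29. A change of that size would not have been detectable at this depth. ARRDC2 was lower at the high dose of Coptidis than of Zizyphi, 20.3 ± 0.0852 against 27.4 ± 0.145 CPM (log2 fold change -0.43, SE 0.1, edgeR adjusted p = 0.00283).

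The FOXO factors themselves were called in 1 comparison with vehicle. At the medium dose of Aconiti FOXO1 averaged 17.1 ± 0.914 CPM, against 8.54 ± 0.777 CPM in vehicle (log2 fold change 1.00, SE 0.16, edgeR adjusted p = 9.13e-06). FOXO3 averaged 28.6 ± 0.164 CPM there, against 20.5 ± 0.503 CPM (log2 fold change 0.48, SE 0.12, edgeR adjusted p = 0.00374). FOXO4 and FOXO6 were not called. MLXIP, MLXIPL and MLX, the partner of both glucose-sensing factors, were not called in any of the 32 comparisons. Their vehicle means were 134 ± 3.87, 1.87 ± 0.396 and 57.7 ± 1.84 CPM. Over all libraries they ranged from 75.8 to 269, from 1.06 to 5.37 and from 41.6 to 78.7 CPM, so the absence of calls does not show steady levels.

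Of 22 genes of insulin and IGF signalling, the counts called against vehicle were 2 higher and 1 lower at the high dose of Coptidis, 2 and 1 for Bupleuri, 1 and 1 for Aconiti and 0 and 1 for Yijung-tang. At the medium dose they were 3 and 2 for Aconiti and 2 and 1 for Coptidis. Of all genes, 12.6% were called at the high dose of Coptidis, 3.36% for Bupleuri, 4.65% for Aconiti and 1.37% for Yijung-tang, and at the medium dose 17.5% for Aconiti and 3.27% for Coptidis. At Coptidis high and Aconiti medium the counts in this list were near those shares. GRB10, an adaptor that inhibits the insulin receptor, was higher with Coptidis high (144 ± 1.35 CPM) and Aconiti medium (154 ± 1.14 CPM) than in vehicle (80.1 ± 0.645 CPM), with log2 fold changes of 0.85 and 0.95 (SE 0.09 each, edgeR adjusted p = 9.15e-09 and 3.9e-10). SGK1, a kinase that phosphorylates FOXO3, was lower at the high dose of Coptidis, at 18.7 ± 0.851 against 49.7 ± 1.6 CPM (log2 fold change -1.41, SE 0.14, edgeR adjusted p = 1.96e-09). It was also lower at the high doses of Bupleuri (37.2 ± 1.4 CPM), Aconiti (33.1 ± 0.784 CPM) and Yijung-tang (31.7 ± 0.59 CPM).

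Of 22 tested genes from a list of 28 other FOXO targets, 6 were higher and 1 lower than vehicle at the high dose of Coptidis, and 10 were higher and 4 lower at the medium dose of Aconiti, where 12.6% and 17.5% of all genes were called. Bupleuri high had 1 and 1, Aconiti high 1 and 2, and Coptidis medium 2 and 1. GADD45A, a growth-arrest and DNA damage gene, averaged 32.5 ± 0.693 CPM at Coptidis high and 30.2 ± 0.744 CPM at Aconiti medium, against 15.1 ± 1.67 CPM in vehicle (log2 fold changes 1.10 and 1.00, edgeR adjusted p = 2.62e-07 and 9.06e-07). BBC3, the pro-apoptotic PUMA, averaged 13.4 ± 0.29 CPM at Coptidis high, against 5.5 ± 0.152 CPM (log2 fold change 1.28, SE 0.17, edgeR adjusted p = 6.64e-07). KLF6, a zinc-finger factor, averaged 145 ± 2.71 CPM at Aconiti medium, against 66.9 ± 2.38 CPM (log2 fold change 1.12, SE 0.15, edgeR adjusted p = 4.93e-07). IGFBP1, a secreted IGF-binding protein, averaged 6.1 ± 0.601 CPM there, against 1.59 ± 0.155 CPM (log2 fold change 1.93, SE 0.3, edgeR adjusted p = 4.98e-06). The median log2 fold change of the list was 0.01 at Coptidis high and 0.08 at Aconiti medium, where all tested genes had a median of -0.01. Cimicifugae, which lowered PDK4, had none of these genes called at the high dose.

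Of 14 tested glucose-responsive genes outside the members, 1 was higher and 1 lower at Coptidis high and 2 were higher and 3 lower at Aconiti medium, against the same 12.6% and 17.5% of all genes. HK2, the hexokinase that commits glucose to phosphorylation, averaged 5.26 ± 0.263 CPM at Coptidis high and 8.19 ± 2.11 CPM at Aconiti medium, against 1.69 ± 0.336 CPM in vehicle (log2 fold changes 1.64 and 2.28, edgeR adjusted p = 7.43e-08 and 1.35e-11). SLC2A1, the GLUT1 glucose transporter, averaged 119 ± 2.93 CPM at Aconiti medium, against 183 ± 5.67 CPM (log2 fold change -0.63, SE 0.08, edgeR adjusted p = 3.41e-07). FASN, the fatty acid synthase, averaged 353 ± 8.88 CPM at Coptidis high and 826 ± 38.2 CPM at Yijung-tang high, against 531 ± 20.8 CPM (log2 fold changes -0.59 and 0.64, edgeR adjusted p = 0.00178 and 0.00354).

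The genes whose mean log2 level over the 25 groups was most like each member were sought among about 10789 genes with a symbol and at least 5 CPM. For PDK4 they were MID1 (Pearson r 0.84), MGAT5B (0.83) and ZNF503 (0.8), and for IRS2 GRAMD1B (0.85), ZNF526 (0.85) and EXOSC6 (0.83). For FBXO32 they were the lysosome and macrophage marker CD68 (0.86), MAPKAPK3 (0.85) and PI4K2A (0.85), and for CCNG2 KCNAB2 (0.81), FNIP1 (0.8) and CTNS (0.79). For SESN3 they were HGSNAT (0.94), SNHG14 (0.93) and PLSCR4 (0.93). For INSR they were DIAPH2 (0.83), SIPA1L3 (0.79) and TTC28 (0.79), for BCL6 EMSY (0.69), ZNF658 (0.68) and MDC1 (0.68), and for ARRDC4 NET1 (0.79), AMBRA1 (0.69) and UPF2 (0.67). FBXO32, CCNG2 and ARRDC4 fell below 5 CPM on average and were not in the searched set, so they could not appear. None of the other tested members appeared among the 3 genes most like another. Among the members themselves the correlations ran from -0.55, for FBXO32 with SESN3, to 0.67, for FBXO32 with CCNG2. These are descriptions over groups that share library codes.

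**Figure D5:**
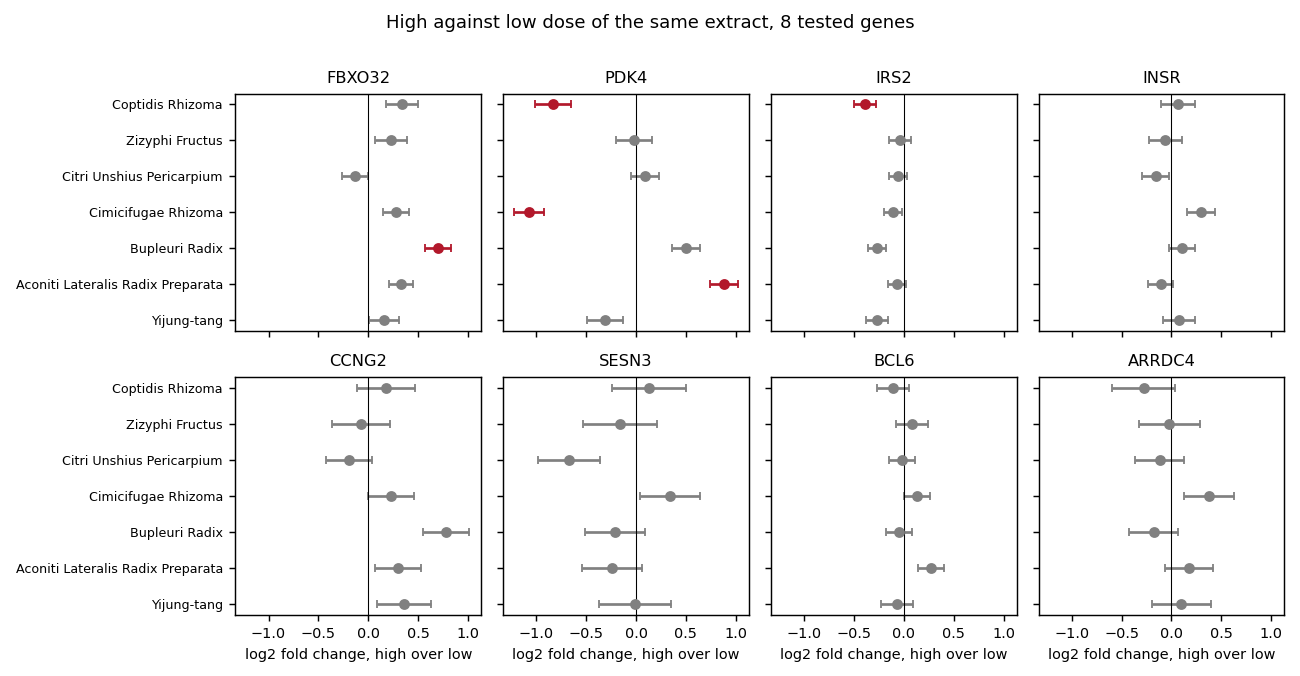
Log2 fold change of the high over the low dose of the same extract (x axis) with its SE for the 8 tested genes, 1 panel per gene and 1 row per extract; called differences are red and the others grey. The called ones are PDK4 for Coptidis (-0.83), Cimicifugae (-1.07) and Aconiti (0.88), IRS2 for Coptidis (-0.39) and FBXO32 for Bupleuri (0.70).

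For Banhasasim-tang, with 1 library per dose and no replicate check, PDK4 had 28.3 CPM at the low dose, 20.3 at the medium dose and 14.8 at the high dose, against 21.7 to 26.3 CPM in the vehicle libraries. The high-dose value was 0.62 times the vehicle mean, the only member and dose of this formula past a 1.5-fold difference either way among the 8 members that passed the filter. Mitochondrial ribosomal RNA took 3.87%, 11.53% and 15.21% of counts in these libraries, from the low to the high dose, and its part in the PDK4 value was not tested. IRS2 had 104, 96.8 and 80.4 CPM from the low to the high dose, against 89.5 to 101 CPM in vehicle. Yijung-tang, the other formula, had 29.5 and 30.4 CPM of PDK4 at the low dose and 22.7 and 25.6 CPM at the high dose, against 21.7 to 26.3 CPM in vehicle, and none of its member tests was called.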

How the data were processed

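Total RNA from A549 cells was made into stranded mRNA libraries and sequenced as 100 bp read pairs, per the labels' protocols. The submitters' processing notes name STAR 2.7.3a and RSEM 1.3.3 with hg38 (GRCh38), besides Trim Galore 0.6.5 and FastQC 0.11.9. The deposited values are RSEM expected counts per Ensembl gene, of which 84.4% were whole numbers. They were rounded to whole counts here. The table holds 210 further columns that match none of the 59 samples by name and were not used. Symbols came from the reference tables, where 94.0% of the 60675 IDs matched GENCODE 29.

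Genes were kept by edgeR's filterByExpr (minimum count 10, minimum total 15), which left 18568. One edgeR 4.0.16 quasi-likelihood model of 25 group means, with TMM scaling and 59 libraries (34 residual degrees of freedom), gave all tests, and Benjamini-Hochberg adjustment ran over all tested genes within each of 32 comparisons. The method was also run on simulated counts with fewer groups and the same dispersion for all genes, which does not check the fit of the 25 groups. Per-library CPM are TMM-scaled, SEs were derived from the F statistic and the fold change, and group errors are SDs. Totals of 17214755 to 39751161 counts limit precision for TXNIP and ARRDC4, and depth covers counting error only. Promoters are RefSeq sequences of GRCh38.p14. Chromosome positions follow GENCODE 29 on GRCh38.

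Alternatives were RLE size factors, no filter, leaving out the 4 libraries of high antisense signal, a replicate block, a fit of only the libraries compared, DESeq2 1.42.0 and leaving out single libraries. Replicate numbers were checked as pairs by correlating deviations from group means over genes. Among the comparisons made, every pair exceeded 0.1 only for the high against the low dose of Citri (0.12 to 0.24). The members, gene lists and tests were chosen with earlier results of these data known. All members are described. Of each list, up to 3 genes are named per comparison, those called with the lowest adjusted p, with the members' paralogues beside them, and for each member the 3 most alike genes with a mean of at least 5 CPM.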

Additional observations from a re-analysis of the deposited data

Results flagged for a closer look

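PDK4 differed between extracts of 1 library code, by a test of the difference itself. At the high dose it was lower with Coptidis than with Zizyphi (log2 fold change -1.04) and lower with Cimicifugae than with Citri (log2 fold change -1.34). PDK4 also had 6 extract groups with all libraries above the vehicle range and 6 with all libraries below it. Of these 12, 3 were single libraries of Banhasasim-tang, and such groups were not counted for all genes. The called high-dose differences of PDK4 from vehicle were lower for Coptidis and Cimicifugae and higher for Bupleuri and Aconiti. This contrast in direction was not itself tested.

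IRS2 differed between Coptidis and Zizyphi at the high dose (log2 fold change -0.40) and between the medium and high doses of Aconiti (log2 fold change 0.46), both by a test of the difference. The first call was lost without any 1 of its 4 libraries and without the filter on low counts (adjusted p up to 0.251), and the second without replicate 2 of the medium dose (0.0601). IRS2 had 7 extract groups wholly above the vehicle and 7 wholly below it, 1 of each being a single library of Banhasasim-tang. This was not tested as a difference. Such groups were not counted for all genes, so the counts only describe IRS2. In Aconiti, SESN3 was lower at the medium than at the high dose (log2 fold change -1.31), a call lost without 3 single libraries in turn (adjusted p up to 0.204). The IRS2 and SESN3 differences in Aconiti come from a comparison that earlier results of these data had singled out. INSR was higher with Cimicifugae than with Citri at the high dose (log2 fold change 0.42), but this call was lost under 7 of 12 alternatives (adjusted p up to 0.601).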

How the results depend on the processing

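Of the 29 member differences called, all kept their direction and their call without the 4 libraries of high antisense signal, with DESeq2 and with the replicate block. RLE size factors kept 26, the fit of only the libraries compared 25 and the unfiltered fit 24. Leaving out single libraries gave 155 values for these differences, of which 40 were no longer called and none changed sign. The counts of called members without the 4 libraries were 18 at the high dose, 11 at the medium dose, 1 at the low dose and 9 between high and low dose, in place of 12, 6, 0 and 5. In the fit of only the libraries compared the counts were 19, 13, 9 and 10, with 8 in place of 6 between extracts and doses of 1 library code. DESeq2 called 13, 6, 1, 7 and 7 in the same order, RLE size factors 11, 6, 0, 4 and 5, and no filter 10, 7, 0, 7 and 6. Without single libraries the counts ran from 9 to 15, from 4 to 7, stayed at 0, ran from 3 to 8 and from 3 to 8. The high against low count was 3 without replicate 2 or 3 of Coptidis high or replicate 3 of Coptidis low, and 8 without replicate 3 of Citri high, and the last count was 3 without replicate 2 of Aconiti medium. A library left alone in its group was assumed to vary like the other groups. Fits without 22 libraries, of groups in no comparison with a called member, were not run.

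The sign of IRS2 changed in 2 uncalled differences without the high-antisense libraries and without replicate 3 of Citri high: Cimicifugae against Citri at the high dose (0.01 in both) and Citri high against vehicle (-0.07 in both). Over single left-out libraries these ran from -0.27 to 0.01 and from -0.07 to 0.22. SESN3 at Citri high was called lower than vehicle without replicate 1 of that group (-1.39, edgeR adjusted p = 0.00215). The cause was not tested. With the replicate block the paired fit called 12, 6, 0, 6 and 7, adding CCNG2 for Bupleuri high against low (0.80, edgeR adjusted p = 0.0203) and SESN3 for Cimicifugae against Citri (0.90, edgeR adjusted p = 0.0428). In 66 group pairs with 3 shared numbers, 4 had every correlation over 0.1, all within the Citri and Cimicifugae libraries. For the other pairs this cut-off cannot decide whether libraries of the same number belong together. Depth limits TXNIP and ARRDC4 most.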
